A study of Mus musculus with 2 samples.

Results

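Nuclear receptors are transcription factors that bind DNA through zinc fingers, and most of them can be switched by small lipid-soluble ligands. The set described here holds 40 listed mouse genes of this superfamily, from subfamilies NR1, NR2, NR3, NR5, NR6 and NR0, with the retinoic acid receptors and the Nr4a genes left out. The genes were listed by name, and a probe set was used where the platform annotation gives exactly 1 symbol and that symbol is on the list. Of the 40 genes, 38 had such a probe set, 101 probe sets in all, where the array table covers 18193 genes in this way. The signals of Nr1h2 and Nr2e3 were not analysed here, though both enter the promoter counts below.

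Cells came from embryos of Col2a1-Venus-Tg mice on a C57Bl/6 background, in which cartilage cells are labelled with Venus, a fluorescent protein modified from GFP. The name of the line gives Col2a1, the gene of the main cartilage collagen, as the driver of the label. Venus-positive and Venus-negative cells were sorted by flow cytometry, and the total RNA from each went onto 1 Affymetrix array, 2 arrays in all. The sources used here do not give the stage of the embryos, how many were pooled or the gates. Both fractions come from the same transgenic line, and the labels do not say which cell types the Venus-negative fraction held. With 1 array per fraction there is no spread between samples, so no test was possible and every fold below describes these arrays only.

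In cartilage, nuclear receptors are known for carrying endocrine signals to the growth plate. The thyroid hormone receptors drive chondrocyte maturation, the glucocorticoid receptor mediates growth restraint by steroid excess, and the vitamin D receptor links calcium supply to mineralisation. Many NR1 members act as heterodimers with a retinoid X receptor (RXR), steroid receptors of NR3 act mostly as homodimers, and orphan members such as the COUP-TFs have no settled natural ligand.

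Signals are the deposited linear intensities. A floor of 22.5, the median signal over the non-control probe sets of the 2 arrays together, replaced any lower signal before log2 was taken. Measured genes are those with a probe set at or above this floor in either fraction, and each is represented by its brightest probe set (highest mean log2 signal). Ratios are Venus-positive over Venus-negative throughout. Over 11789 measured genes the median log2 ratio was -0.33, so a "relative" log2 ratio has this median subtracted. All 12 chondrocyte markers were at least 2-fold higher in Venus-positive cells, with a summed signal of 54685 in Venus-positive cells and 4158 in Venus-negative cells, none of them at 0. Here and below, such sums add raw signals of different probe sets, also those below the floor, so the brightest markers weigh most. Col2a1, which drives the label, is one of these markers. Where a gene had more than 1 measured probe set, their log2 ratios had a median standard deviation of 0.21, which holds no error between samples.

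The promoters of the members whose signals stood furthest from the rest on either side, Nr2f1, Nr2f2 and Vdr, and of Nr1d2, the next highest ratio, are shown for reference. Each is the RefSeq sequence of the 250 bases before an annotated start in build GRCm38.p6, read 5′ to 3′ along the gene. Capitals mark the nuclear receptor half-site AGGTCA, the GC box GGGCGG and the SOX-type core ACAAAG, searched as exact letters on both strands. The ends of some of these motifs can overlap, but no matches did in the windows shown.
Nr2f1 start a, chr13:78198874-78199123, minus strand: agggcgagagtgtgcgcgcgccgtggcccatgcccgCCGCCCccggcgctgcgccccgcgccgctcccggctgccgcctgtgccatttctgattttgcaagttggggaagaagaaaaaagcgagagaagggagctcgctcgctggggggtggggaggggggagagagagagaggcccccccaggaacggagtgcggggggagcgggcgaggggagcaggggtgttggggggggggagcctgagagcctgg
Nr2f1 start b, chr13:78196450-78196699, minus strand: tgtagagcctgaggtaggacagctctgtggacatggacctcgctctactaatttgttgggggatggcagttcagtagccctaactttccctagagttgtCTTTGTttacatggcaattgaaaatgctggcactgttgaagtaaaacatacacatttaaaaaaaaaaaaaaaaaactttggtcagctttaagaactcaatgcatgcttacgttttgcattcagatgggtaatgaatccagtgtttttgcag
Nr2f2, chr7:70366747-70366996, minus strand: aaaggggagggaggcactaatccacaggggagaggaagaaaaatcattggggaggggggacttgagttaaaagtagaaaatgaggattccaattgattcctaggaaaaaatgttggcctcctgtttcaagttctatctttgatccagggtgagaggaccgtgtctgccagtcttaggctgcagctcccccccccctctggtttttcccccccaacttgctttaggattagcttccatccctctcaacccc
Vdr, chr15:97908297-97908546, minus strand: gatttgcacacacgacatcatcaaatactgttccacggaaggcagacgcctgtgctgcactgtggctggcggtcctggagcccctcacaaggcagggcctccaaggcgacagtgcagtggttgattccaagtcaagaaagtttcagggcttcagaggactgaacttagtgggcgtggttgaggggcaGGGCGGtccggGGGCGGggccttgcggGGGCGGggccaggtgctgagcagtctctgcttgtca
Nr1d2, chr14:18239107-18239356, minus strand: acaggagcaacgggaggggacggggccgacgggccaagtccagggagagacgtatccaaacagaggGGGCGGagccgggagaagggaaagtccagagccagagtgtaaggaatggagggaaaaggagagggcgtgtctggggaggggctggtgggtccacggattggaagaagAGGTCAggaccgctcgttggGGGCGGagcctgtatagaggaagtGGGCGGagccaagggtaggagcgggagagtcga
The Nr2f2 window held none of the 3 motifs. Start a of Nr2f1 held 1 GC box at a GC content of 72%, and start b held 1 ACAAAG match at 39.6% GC. Vdr and Nr1d2 each held 3 GC boxes, and Nr1d2 also held 1 half-site. Among 53 promoter windows of 36 members found in the table, 10 held AGGTCA (18.9%, against 14.0% of all 32851 windows), 21 held GGGCGG (39.6%, against 32.7%) and 5 held ACAAAG (9.43%, against 16.5%). The GC box stood in 14 of 25 windows of measured members and in 7 of 28 windows of members that were not measured, Nr1h2 and Nr2e3 included. Median GC content also differed between these windows, at 61.2% against 54%. The windows of all genes were not split this way, so the counts do not link the GC box to being measured. Some genes have several windows, and these are counts of letters, not of bound sites.

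Of the 38 members with a probe set, 19 were measured, 14 of them at or above the floor on both arrays and 5 only on 1, so that for these 5 the ratio is a bound. Over the whole array table, 64.8% of genes were measured. On the deposited scale 4 measured members were lower in Venus-positive cells by 2-fold or more, namely Nr2f2, Nr2f1, Esrrg and Esrra, where 11.6% of all measured genes passed that size. Vdr alone was at least 2-fold higher, where 2.79% of all measured genes were. Relative to the median gene, 2 members were 2-fold lower (background 6.45%), Nr2f2 and Nr2f1, and again Vdr was 2-fold higher (background 5.06%). The other 14 measured members did not pass 2-fold on the deposited scale. Of these, Rxrg, Nr3c2 and Pgr have ratios that are bounds, which do not show that they were within 2-fold. The median log2 ratio of the 19 was -0.45, against -0.33 for all measured genes, and 9 of them lay above the median gene and 10 below. With counts this small, neither share sets the members apart from the background. In bulk RNA of a fraction, fewer cells of a type and less RNA per cell cannot be told apart.

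**Figure D1:**
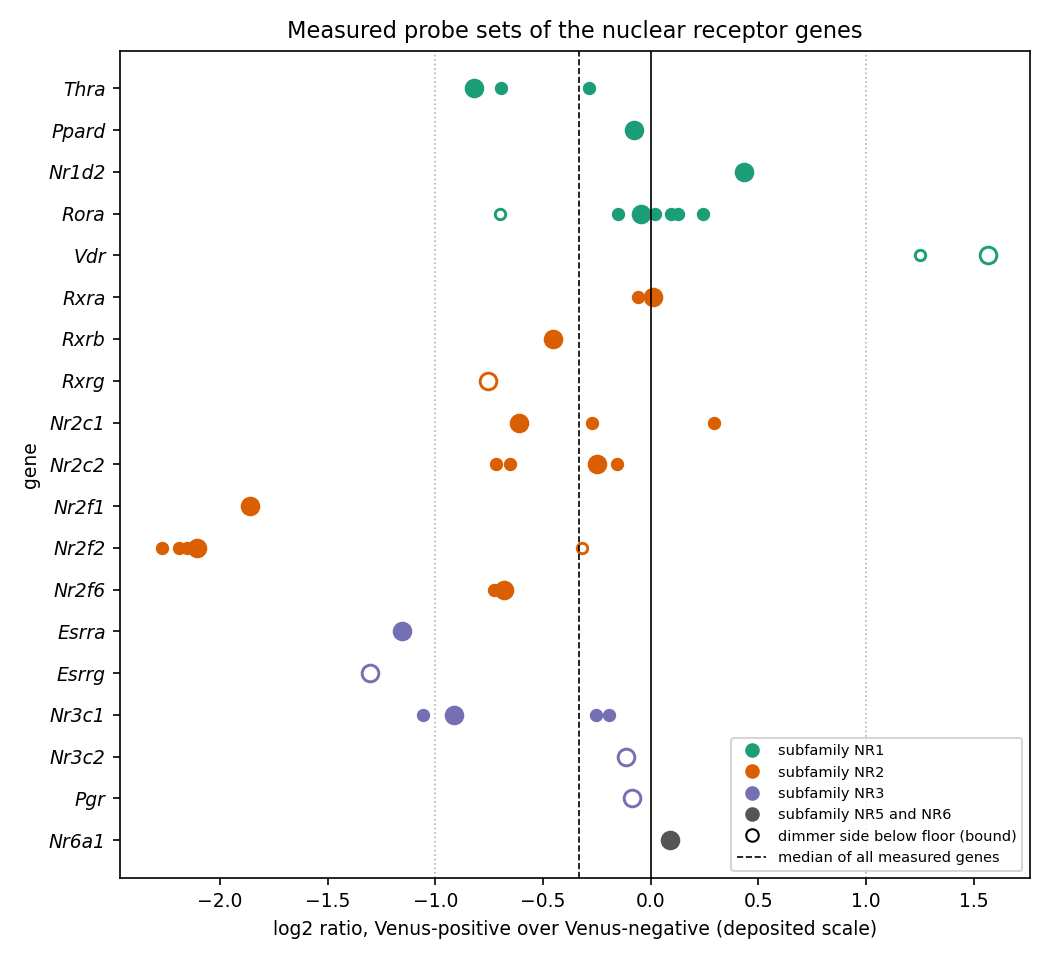
Log2 ratio of signal, Venus-positive over Venus-negative (x axis, deposited scale), for each measured probe set of the 19 measured nuclear receptor genes (y axis). Larger points are the probe sets that stand for the gene, open points are bounds, dotted lines mark 2-fold and the dashed line is the median of all measured genes at -0.33. Vdr stands to the right of the upper dotted line, and Nr2f1 and 4 of 5 probe sets of Nr2f2 stand furthest left.

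**Figure D2:**
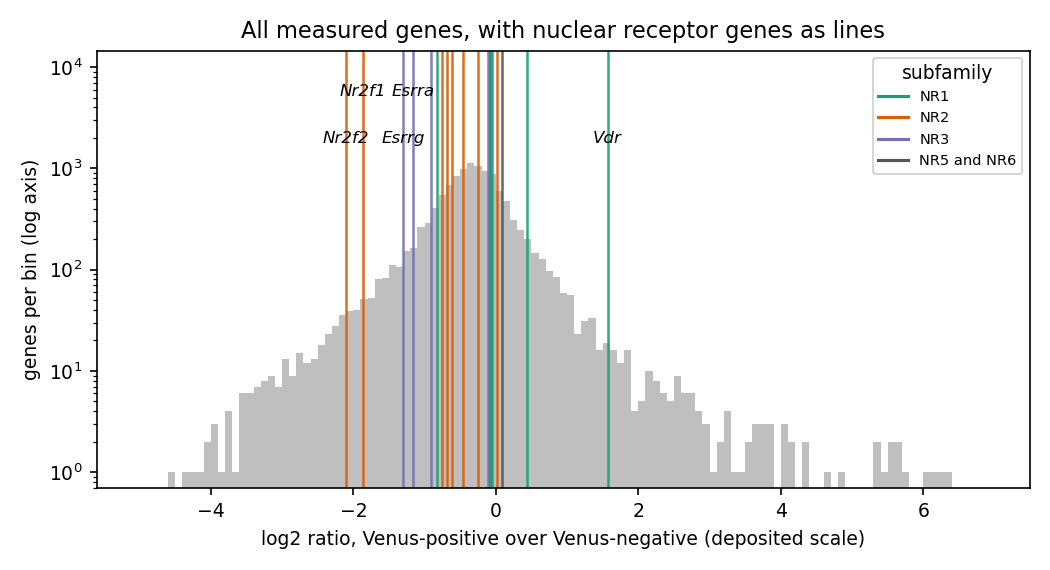
Histogram of log2 ratios, Venus-positive over Venus-negative (x axis, deposited scale) for 11789 measured genes (y axis, genes per bin of the histogram, log axis), with a line for each measured nuclear receptor gene in the colour of its subfamily. Most lines fall in the body of the distribution, and the 5 named genes are those past 2-fold.

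Nr2f2 and Nr2f1 had the lowest ratios among the 19 measured members on the deposited scale, though with the floor at the 25th percentile Nr3c2 was lower than both. Nr2f2 encodes COUP-TFII, a regulator of venous identity and of mesenchymal tissues in the embryo. Its brightest probe set read 142 in Venus-positive cells and 611 in Venus-negative cells, 4.31-fold lower in Venus-positive cells. Another 3 probe sets gave 39.0 against 178, 43.4 against 193 and 24.4 against 118, or 4.57-fold, 4.44-fold and 4.83-fold lower. The log2 ratios of these 4 probe sets ran from -2.27 to -2.11. The fifth was dim, at 6.60 in Venus-positive cells and 28.0 in Venus-negative cells, and gives only a bound of at least 1.25-fold lower, and the sixth was below the floor on both arrays. Of all measured genes, 1.87% had a lower ratio than Nr2f2.

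Nr2f1, which encodes COUP-TFI, known for its roles in the developing nervous system, had 1 probe set. Its signal was 69.4 in Venus-positive cells and 253 in Venus-negative cells, 3.64-fold lower, and 2.71% of measured genes had a lower ratio. Nr2f6 (EAR2), the more distant member of the group, differed less. Its probe sets gave 91.0 against 146 and 76.1 against 126, which are 1.60-fold and 1.65-fold lower in Venus-positive cells, or -0.35 and -0.39 on the relative log2 scale. All 3 genes of the group thus read lower in Venus-positive cells, Nr2f6 by less than 2-fold.

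Markers of other tissues moved the same way as the COUP-TF genes. Of 10 endothelial markers, all measured, 9 were lower by 2-fold or more, with a summed signal of 217 in Venus-positive cells and 1064 in Venus-negative cells. Of 10 markers of fibroblasts and perichondrium, 8 were at least 2-fold lower, at a summed signal of 11436 in Venus-positive cells and 25098 in Venus-negative cells. Col3a1 and Lum, which did not pass 2-fold, gave most of the Venus-positive sum, at 6301 and 2196. Neuronal and glial markers were at least 2-fold lower for 6 of 9 measured (4 relative to the median gene, with 1 then higher), with sums of 273 in Venus-positive cells and 987 in Venus-negative cells. Among other lists, 8 of 9 measured epithelial, 5 of 6 erythroid, 5 of 8 smooth muscle and pericyte and 2 of 4 hepatocyte markers were lower by 2-fold or more. No measured marker of these lists was at 0 on either array, but many were below the floor in Venus-positive cells. These were 5 endothelial, 1 fibroblast and perichondrium, 3 neuronal and glial and 2 epithelial markers. They also included 3 erythroid, 4 smooth muscle and pericyte and 3 hepatocyte markers. The part of the marked cell types in the COUP-TF values was not tested.

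**Figure D3:**
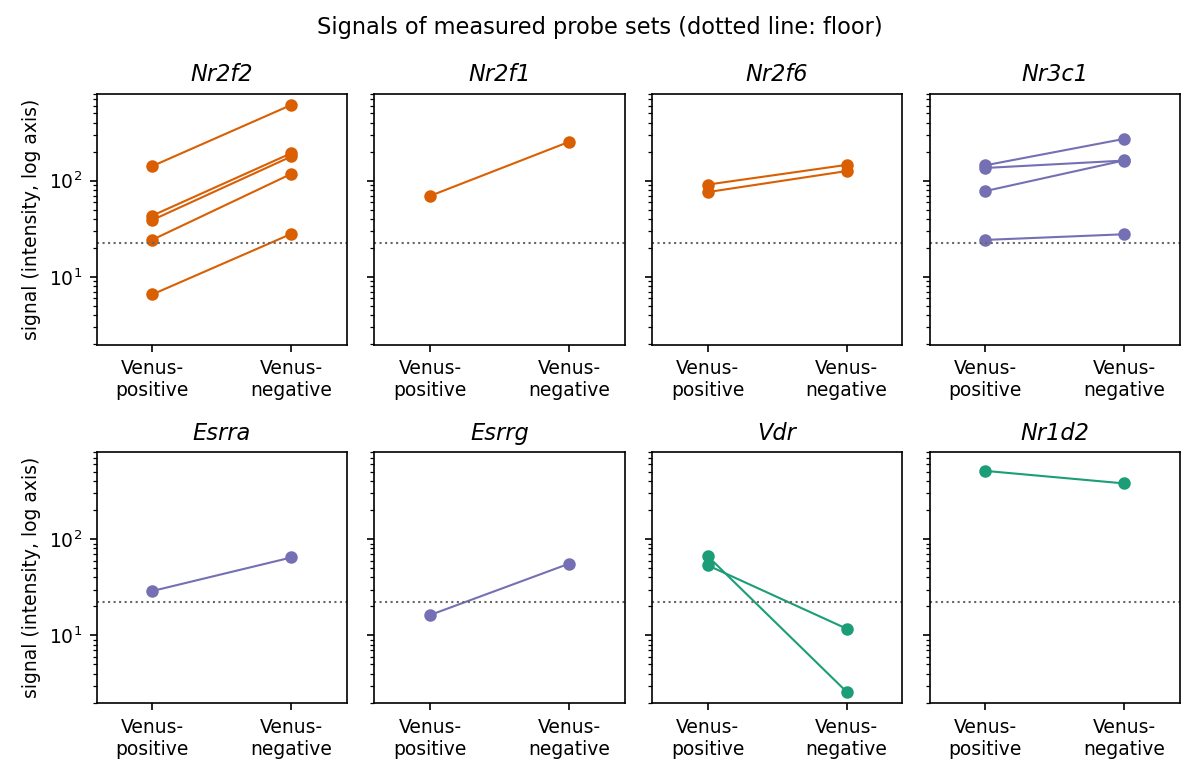
Signal (y axis, intensity, log axis) of every measured probe set of 8 nuclear receptor genes in Venus-positive (left) and Venus-negative (right) cells, joined by a line, with the floor of 22.5 dotted. Heights of different probe sets are not comparable, and slopes are comparable only for lines above the floor at both ends. Signals below the floor are drawn as they stand, so the slopes of lines that cross it overstate the bounds given in the text. 4 lines of Nr2f2 run parallel above the floor and that of its dim probe set crosses it, while both lines of Vdr run from above the floor in Venus-positive cells to below it in Venus-negative cells.

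Vdr, the receptor of calcitriol, the hormonal form of vitamin D, was the member with the highest ratio. Its probe sets read 66.8 and 53.6 in Venus-positive cells, against 2.61 and 11.8 in Venus-negative cells. Both Venus-negative signals were below the floor, so the folds are bounds, at least 2.97-fold and at least 2.38-fold higher. The signals in Venus-positive cells were near the floor, and with a floor at the 75th percentile Vdr was not measured. In a list of 10 genes of vitamin D synthesis, breakdown and response, 7 had a probe set of their own and 2 were measured. These were Cyp27a1, a sterol hydroxylase, at 24.3 against 47.6, and Tnfsf11 (RANKL) at 30.5 against 28.5, both within 2-fold. Markers of osteoblasts, which are known to carry Vdr, were measured for 5 of 8, of which 3 were at least 2-fold higher and 1 lower, at summed signals of 641 in Venus-positive cells and 339 in Venus-negative cells. Their part in the Vdr value was not tested.

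The other measured receptors of NR1 did not pass 2-fold, on the deposited scale or relative to the median gene. Thra, the main thyroid hormone receptor of the skeleton, read 172 in Venus-positive cells and 304 in Venus-negative cells, 1.77-fold lower, and its other probe sets gave 1.22-fold and 1.62-fold lower. Its relative log2 ratio was -0.49. Thrb was below the floor on both arrays. Ppard, the fatty acid receptor found in most tissues, read 43.6 against 46.1, while Ppara and Pparg were below the floor on both. The orphan receptor Rora was represented by 7 measured probe sets, whose ratios ran from -0.70 to 0.24, the lowest of them a bound, and its brightest was level at 144 against 149. The receptor Nr1d2 (REV-ERB beta), a haem-binding repressor of the circadian clock, read 511 in Venus-positive cells and 379 in Venus-negative cells, a 1.35-fold higher signal on the deposited scale and 1.70-fold relative to the median gene. Its close relative Nr1d1 was at 14.4 against 2.42, below the floor on both arrays.

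The RXRs, which serve as partners of Vdr, Thra and Ppard, were all measured. Rxra read 188 in Venus-positive cells and 186 in Venus-negative cells, with its second probe set at 45.7 against 47.6. Rxrb read 219 against 300.2, 1.37-fold lower. Rxrg was at 16.6, below the floor, in Venus-positive cells, against 38.0 in Venus-negative cells, at least 1.69-fold lower. None of the 3 passed 2-fold, though the Rxrg value is a bound and does not show that it was within 2-fold. The testicular receptors Nr2c1 and Nr2c2, orphan receptors that, despite their name, are found in many tissues, were within 2-fold. Nr2c2 read 366 against 435 on its brightest probe set and the 3 measured probe sets of Nr2c1 ran from -0.61 to 0.30 on the log2 scale.

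Among steroid receptors, Nr3c1, the glucocorticoid receptor, read 144 in Venus-positive cells and 271 in Venus-negative cells on its brightest probe set, 1.88-fold lower. Its other probe sets spread to both sides of that value. One gave 77.9 against 162, 2.08-fold lower, and another 135 against 162, 1.19-fold lower, while the dimmest read 24.3 against 27.8. Relative to the median gene the 4 measured probe sets ran from -0.73 to 0.14. Nr3c2, the mineralocorticoid receptor, read 0.978 in Venus-positive cells and 24.3 in Venus-negative cells, where it barely passed the floor, at least 1.08-fold lower. Pgr, the progesterone receptor, read 16.7 against 23.9, also at the edge of the floor. Esr1 and Esr2, the oestrogen receptors, were below the floor on both arrays.

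The oestrogen-related receptors (ERRs) are orphan receptors that drive mitochondrial and oxidative genes. Esrra read 29.0 in Venus-positive cells and 64.6 in Venus-negative cells, 2.23-fold lower. Esrrg read 16.3, below the floor, in Venus-positive cells and 55.6 in Venus-negative cells, at least 2.47-fold lower. Each rests on 1 measured probe set of dim signal, and neither was 2-fold lower relative to the median gene, at -0.82 and -0.97 on the log2 scale. Esrrg did pass that size relative to the median gene under quantile normalization, with scaling to the hybridisation controls and with the floor at the 25th percentile. Esrrb was below the floor on both arrays. Skeletal muscle markers were at least 2-fold lower for 9 of 9 measured (7 relative to the median gene). Their summed signals were 445 in Venus-positive cells and 4595 in Venus-negative cells. None of these markers was at 0, but 4 were below the floor in Venus-positive cells, and their part in the ERR values was not tested. In a list of 16 ERR target and oxidative metabolism genes, 13 were measured, and only Esrra, itself on the list, was 2-fold lower. The ratio of Cox6a2, at 10.1 against 31.2, is a bound and does not show that it was within 2-fold. The list's median log2 ratio was -0.48, with cytochrome c (Cycs) at 3034 against 4232 and the mitochondrial factor Tfam at 232 against 286.

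The remaining members were dim. Nr6a1, the germ cell nuclear factor, read 27.9 against 26.2 on the only one of its 5 probe sets to reach the floor. The 19 members with probe sets below the floor on both arrays were Thrb, Ppara, Pparg, Nr1d1, Rorb, Nr1h3, Nr1h4, Nr1i2, Nr1i3, Hnf4a, Hnf4g, Nr2e1, Esr1, Esr2, Esrrb, Nr5a1, Nr5a2, Nr0b1 and Nr0b2. Their 38 probe sets had no signal above 18.1, and a signal below the floor does not show that a transcript is absent. They include receptors best known from liver and gut, such as Hnf4a, Nr1h4 (the bile acid receptor FXR) and Nr1i2 (PXR), and those of steroid-producing tissue, such as Nr5a1 and Nr0b1.

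Genes that work with these receptors were counted on the same scale. Of 26 coactivators and corepressors, 24 were measured and 2 were lower by at least 2-fold in Venus-positive cells, none higher, with a median log2 ratio of -0.50. Ppargc1b, the coactivator PGC-1 beta, which works with the ERRs, read 21.0 against 78.1, at least 3.47-fold lower. Ncoa4, a coactivator also known for delivering ferritin to lysosomes, read 263 against 670, 2.55-fold lower. The related Ppargc1a was at 56.5 against 89.7, within 2-fold. The acetyltransferase Crebbp, at 887 against 1006 on its brightest probe set, lay slightly above the median gene. The lowest of its 4 measured probe sets gave a log2 ratio of -0.52, below the median gene.

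In the thyroid hormone list, 6 of 12 genes were measured, 2 at least 2-fold higher and 2 lower. Of all measured genes, 2.79% were higher and 11.6% lower by that size. Klf9, a response gene shared by thyroid hormone and glucocorticoids, read 1471 in Venus-positive cells and 593 in Venus-negative cells, 2.48-fold higher, though the lowest of its 7 probe sets gave a log2 ratio of 0.08. Me1 (malic enzyme) was 2.45-fold higher, at 266 against 109. Slc16a10, a transporter of aromatic amino acids and thyroid hormone, and Crym, which binds thyroid hormone in the cytosol, were at least 3.02-fold and at least 3.01-fold lower, though a probe set of Slc16a10 gave a log2 ratio of -0.26. Relative to the median gene 3 genes of the list were higher and 2 lower. The deiodinase genes Dio1, Dio2 and Dio3 were not among the measured genes.

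Of 23 PPAR target and lipid genes, 14 were measured, and on the deposited scale 5 were lower by 2-fold or more and 2 higher. Relative to the median gene 3 were lower and 2 higher, where 6.45% and 5.06% of all measured genes were. The fatty acid transporter Cd36 was at least 3.48-fold lower, the lipoprotein lipase inhibitor Angptl4 was 3.19-fold and the lipid droplet protein Plin2 2.97-fold lower. The other measured probe set of Angptl4 gave a log2 ratio of -0.27. Fabp3 was 2.31-fold higher, but was level on its other probe set, at -0.0032 on the log2 scale. Markers of leukocytes, a class that includes macrophages, which are known to carry Cd36 and Plin2, were at least 2-fold lower for 8 of 9 measured. Their summed signals were 190.1 in Venus-positive cells and 2080 in Venus-negative cells. None of these markers was at 0, but 5 were below the floor in Venus-positive cells, and their part was not tested. Of the adipocyte markers only Fabp4 was measured, at 3.33 against 32.2.

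Circadian genes included 15 measured of 17, of which 2 were at least 2-fold higher (3 relative to the median gene) and none lower. The gene added relative to the median gene was Per1, at a relative log2 ratio of 1.07. Bhlhe40 (DEC1), a repressor in the clock that also responds to hypoxia, read 574 in Venus-positive cells and 99.9 in Venus-negative cells, 5.74-fold higher. Cry2 read 196 against 83.3, 2.35-fold higher. Each rests on 1 measured probe set. Clock was at 245 against 218 and Arntl at 28.7 against 52.7. Both fractions were measured once, and the sources used here do not give the time of day of collection.

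Of 18 LXR and sterol genes, 14 were measured, 1 at least 2-fold lower and 1 higher, where 11.6% and 2.79% of all measured genes were. Apoe, the lipid carrier, was 5.60-fold lower, at 55.9 against 313, and Scd1, a fatty acid desaturase, was 2.14-fold higher, with its second probe set at a log2 ratio of 0.60. The sterol synthesis genes Hmgcs1, Sqle and Cyp51 were all within 2-fold. Of 16 genes of glucocorticoid activation, chaperones and response, 14 were measured, 2 at least 2-fold higher and 1 lower. The higher ones were Klf9 and Errfi1 (1839 against 899, 2.05-fold), a brake on growth factor receptors. The other measured probe set of Errfi1 gave a log2 ratio of 0.80. The lower one was Hsd11b2, the enzyme that inactivates glucocorticoids, at 46.4 against 96.2, with a relative log2 ratio of -0.72. Relative to the median gene 3 genes of this list were 2-fold higher and 0 lower, the added one being Per1, which is also on the circadian list. Fkbp5, a standard glucocorticoid response gene, was within 2-fold at 223 against 254, as was Tsc22d3 (GILZ) at 546 against 500.1. In the oestrogen and progesterone list 6 of 11 were measured and none passed 2-fold. The ratios of Gper1 in that list, at 15.5 against 31.4, and of Hsd11b1 in the glucocorticoid list, at 12.2 against 29.5, are bounds. They do not show that these genes were within 2-fold.

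**Figure D4:**
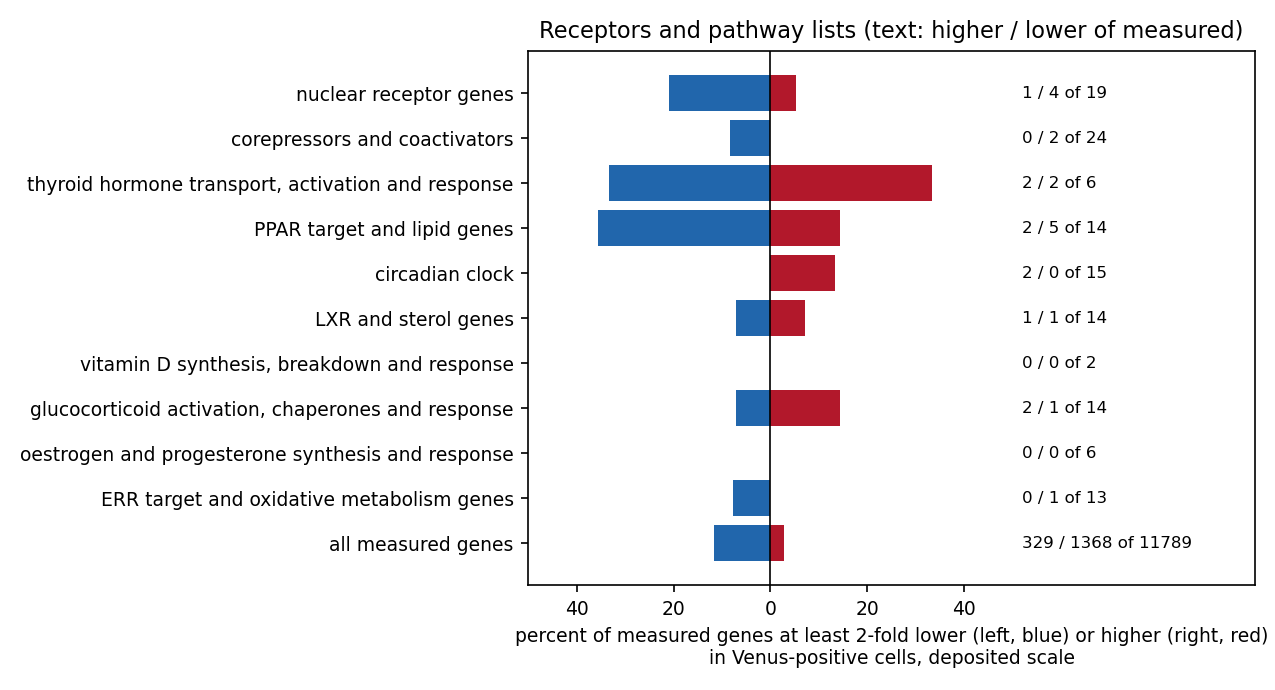
Percent of measured genes lower (blue, left) or higher (red, right) in Venus-positive cells by 2-fold or more on the deposited scale (x axis), for the nuclear receptor genes, 9 pathway lists and all measured genes (y axis), with the counts at the right. Several lists rest on fewer than 10 measured genes, and all measured genes stand at 11.6% lower and 2.79% higher.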

How the data were processed

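Expression was measured in 2 samples, Venus-positive and Venus-negative cells, with 1 one-colour array each, grouped by the cell type in the labels. The deposited table holds linear probe set intensity values made by the authors with MAS5 (per the submitters' processing notes). The sources used here do not give its version, scaling target or detection calls. The arrays had median signals of 19.0 (Venus-positive) and 26.5 (Venus-negative). The number of arrays limits the precision, and no p-value was computed.

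Of 45037 non-control probe sets, 34945 were paired with 1 symbol, 932 with several and 9160 with none, and only the first kind was used. Gene identifiers of all 38 members with a probe set matched RefSeq. The files name no genome build. Analyses used Python 3.11.15, numpy 2.4.6 and pandas 2.3.3. The 2-fold size is a description, not a test. The members, 9 pathway lists and 12 marker lists were chosen with earlier results of these data known. All 40 members were accounted for, and from each pathway list the members past 2-fold were named, at most the 4 largest. In the same lists Cyp27a1, Tnfsf11, Cycs, Tfam, Cox6a2, Ppargc1a, Crebbp, Clock, Arntl, Per1, Hlf, Fkbp5, Tsc22d3, Hsd11b1, Gper1, Fabp4, Hmgcs1, Sqle and Cyp51 are also named, a choice made with their values known. The calculation was tested on simulated data. The 8 alternatives were other scalings, floors, probe set rules and a pseudocount of 16.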

Additional observations from a re-analysis of the deposited data

How the results depend on the processing

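No paired analysis was possible because each fraction has 1 array. The counts of members at least 2-fold higher (1) and lower (4), and their values relative to the median gene (1 and 2), moved by over 1.5 times under 3 of the 8 alternatives. Centred on the median gene, 2 members were lower. With the floor at the 25th percentile, where 33 members were measured, 3 were higher and 7 were lower, and after centring 4 were higher and 5 were lower. With the floor at the 75th percentile, where 11 members were measured, 0 were higher and 2 were lower, and after centring 0 were higher and 1 was lower. Fewer or more members pass these floors by construction. The median log2 ratio of the members stayed below 0 under all 8, from -0.45 to -0.12. The median of all measured genes was also below 0 wherever ratios were not centred, so this sign does not set the members apart. Relative to the median gene, the members' median ran from -0.27, scaled to the hybridisation controls, to 0.04, with no floor and 16 added to each signal.

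Nr2f2 kept a log2 ratio between -2.11 and -1.78 under the alternatives, and Nr2f1 between -1.86 and -1.15, the weakest with the floor at the 75th percentile. Vdr ranged from 1.32 to 2.19 where it was measured. Esrrg ranged from -1.77 to -0.97 and Esrra from -1.16 to -0.72, so the 2-fold size of both depends on the scaling, and the cause was not tested. Of 140 single-member values, 124 moved by less than 0.34, a pooled standard deviation over probe sets of a gene, 16 moved more and 0 changed sign among members past 2-fold. Centring subtracted the same -0.33 from every member, and leaving out probe sets with names ending in _x_at or _s_at changed no member's value. These 2 alternatives thus could not add to the 16. Members that were not measured under an alternative are not among the 140. Values of dim members rest on the floor. With it at the 25th percentile, Rxrg was at -1.20 and Nr3c2 at -2.23, in place of -0.76 and -0.11.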

Other observations

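Nr3c2 depended on the floor more than any other measured member. It read 0.978 in Venus-positive cells and 24.3 in Venus-negative cells on its 1 probe set, and its log2 ratio was -0.11 with the floor at 22.5, -2.23 with it at the 25th percentile and -1.25 with no floor and 16 added to each signal.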
